A study of Mus musculus with 8 samples.

Results

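The 40 genes described here encode the proteins of clathrin-mediated endocytosis and of the endosomes that receive its cargo. They were chosen by name from the pathway: the clathrin chains, the AP2 adaptor, the assembly, scaffold, membrane-bending and fission proteins, the uncoating phosphatase, and the Rab, ESCRT and retromer proteins of endosomes. All 40 were found among the 55573 gene IDs of the count tables, and all 40 were among the 18205 genes with enough reads to be tested. Within the group, 5 genes were classed as neuronal isoforms from general knowledge (Dnm1, Amph, Snap91, Sh3gl2 and Synj1), 2 as isoforms known mainly from brain and testis (Dnm3 and Sh3gl3), and 33 as broadly expressed.

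RNA was sequenced from tdTomato-labelled cells sorted by fluorescence from the cerebral cortex of mice on a C57BL/6 background. There were 4 groups of 2 libraries: PV-Cre/tdTomato/Dnmt1 loxP2 mice at 18 months (KO), PV-Cre/tdTomato/Dnmt1 wild-type mice at 18 months (WT), and the KO and WT genotypes at 6 months. Every group carried the PV-Cre driver, which expresses Cre recombinase from the parvalbumin locus, and the tdTomato reporter, which Cre switches on. In KO mice 2 exons of Dnmt1, the maintenance DNA methyltransferase, lie between loxP sites in the Dnmt1 floxP2 line (B6;129Sv-Dnmt1tm4Jae/J), so that Cre deletes them. The series describes the 2 libraries of a group as technical replicates and the cells as pooled from 6 WT and 6 KO mice, so the p-values below measure the spread between libraries and not between animals.

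In clathrin-mediated endocytosis the AP2 adaptor gathers cargo at the plasma membrane, clathrin polymerises on it into a coat, BAR domain proteins bend the membrane, and dynamin cuts the neck of the pit. The vesicle then loses its coat and fuses with early endosomes marked by Rab5, from which cargo is recycled by Rab4, Rab11 and EHD proteins, retrieved by retromer, or sorted by ESCRT proteins towards late endosomes marked by Rab7. Presynaptic terminals use this route to retrieve synaptic vesicle membrane, and neurons express their own isoforms of several steps: dynamin 1 (Dnm1), AP180 (Snap91), amphiphysin 1 (Amph) and endophilin A1 (Sh3gl2), whose broadly expressed relatives are dynamin 2 (Dnm2), CALM (Picalm), amphiphysin 2 (Bin1) and endophilin A2 (Sh3gl1).

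The libraries held 6008175 to 13551218 counts, and the 40 genes together took 0.416% to 0.622% of them. Pairs of libraries of one group correlated at r = 0.976 to 0.992 across genes on the log scale, and the WT libraries at 6 months stood apart, at r = 0.9 to 0.951 with those of the other groups. Dnmt1 had 74.3 and 76.6 CPM (counts scaled to a common library total) in 18-month KO libraries against 80.8 and 81.1 CPM in 18-month WT libraries, a log2 fold change of -0.10 (edgeR adjusted p = 0.281). At 6 months it had 77.2 and 75.2 CPM in KO libraries against 97.9 and 104 CPM in WT libraries, a log2 fold change of -0.40 (adjusted p = 1e-04). A count over the whole gene also holds reads from exons outside the deleted part, so these values do not check the deletion. Pvalb, which encodes parvalbumin, had 6 reads in all 8 libraries together, so the defining marker of the labelled interneurons was at or near 0.

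Markers of glial cells were abundant and differed between groups. The summed level of 14 oligodendrocyte markers was 28845 ± 379 CPM in 18-month KO, 42196 ± 17.6 CPM in 18-month WT, 31695 ± 647 CPM in 6-month KO and 14408 ± 35.7 CPM in 6-month WT (SD, n = 2 libraries each). For 12 astrocyte markers the sum was 11982 ± 21.8 CPM in 18-month KO, 5625 ± 18.9 CPM in 18-month WT, 10113 ± 42.4 CPM in 6-month KO and 16699.9 ± 47.4 CPM in 6-month WT. The sum of 12 pan-neuronal markers was 116 ± 0.0487 CPM in 18-month KO, 171 ± 0.187 CPM in 18-month WT, 251 ± 0.785 CPM in 6-month KO and 472 ± 11.5 CPM in 6-month WT. Gad1, which makes the transmitter GABA, had 6.87 and 6.04 CPM in 18-month KO, 11.4 and 13.9 CPM in 18-month WT, 14.4 and 15 CPM in 6-month KO, and 125 and 132 CPM in 6-month WT. The sum of 9 GABA neuron markers, Gad1 among them, was higher in KO than in WT at 18 months. It was 844 ± 16.9 CPM in 18-month KO and 616 ± 35.1 CPM in 18-month WT. At 6 months it was 756 ± 16.6 CPM in KO and 1251 ± 27.9 CPM in WT. The higher sum at 18 months did not stand for most of these markers. Of the 8 that were tested, edgeR called 1 higher and 2 lower in 18-month KO, with a median log2 fold change of -0.44. For 11 parvalbumin interneuron markers the sum was 547 ± 2.52 CPM in 18-month KO and 582 ± 21.1 CPM in 18-month WT. At 6 months it was 502 ± 6.94 CPM in KO and 479.9 ± 22 CPM in WT. These similar sums hid markers that went both ways, and only 8 of the 11 were tested. At 18 months 2 were called higher in KO and 3 lower (median log2 fold change -0.23). At 6 months 2 were called higher and 4 lower (median -0.84). In such bulk samples fewer cells of a type and less RNA per cell cannot be told apart, and the part of these markers in the results below was not tested.

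The promoters of the 3 dynamins and of both assembly proteins, steps with a neuronal and a broad isoform, are shown because the deleted enzyme copies methylation at CG dinucleotides. Of the 40 genes, 35 matched RefSeq's promoter table of 27025 genes (GRCm38.p6), and Vps35, Ehd1, Rab4a, Bin1 and Snx2 did not. The sequences are the 250 bases before the transcription start on the gene's own strand, 5′ to 3′, with each CG in capitals: Dnm1 at chr2:32353330-32353579 (minus strand), Snap91 at chr9:86880709-86880958 (minus), Dnm2 at chr9:21424658-21424907 (plus), Dnm3 at chr1:162478035-162478284 (minus) and Picalm at chr7:90129963-90130212 (plus).
Dnm1: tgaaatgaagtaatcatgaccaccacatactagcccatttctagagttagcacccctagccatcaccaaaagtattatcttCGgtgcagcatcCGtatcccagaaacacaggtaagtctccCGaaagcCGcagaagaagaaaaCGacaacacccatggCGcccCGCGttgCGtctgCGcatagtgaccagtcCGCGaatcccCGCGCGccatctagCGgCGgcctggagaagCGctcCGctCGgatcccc
Snap91: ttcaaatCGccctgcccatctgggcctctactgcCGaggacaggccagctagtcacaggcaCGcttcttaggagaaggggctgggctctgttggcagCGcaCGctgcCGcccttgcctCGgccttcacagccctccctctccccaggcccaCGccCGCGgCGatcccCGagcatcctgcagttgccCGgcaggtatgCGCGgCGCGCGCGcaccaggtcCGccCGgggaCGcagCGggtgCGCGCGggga
Dnm2: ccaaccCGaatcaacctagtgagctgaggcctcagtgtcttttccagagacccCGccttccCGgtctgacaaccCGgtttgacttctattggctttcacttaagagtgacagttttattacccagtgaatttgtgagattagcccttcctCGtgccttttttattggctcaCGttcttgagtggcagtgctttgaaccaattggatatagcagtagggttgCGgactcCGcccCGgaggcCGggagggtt
Dnm3: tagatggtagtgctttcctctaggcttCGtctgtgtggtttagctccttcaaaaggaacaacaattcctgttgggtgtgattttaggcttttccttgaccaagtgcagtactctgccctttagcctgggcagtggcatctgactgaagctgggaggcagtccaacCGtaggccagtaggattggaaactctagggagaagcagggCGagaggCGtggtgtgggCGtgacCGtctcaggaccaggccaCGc
Picalm: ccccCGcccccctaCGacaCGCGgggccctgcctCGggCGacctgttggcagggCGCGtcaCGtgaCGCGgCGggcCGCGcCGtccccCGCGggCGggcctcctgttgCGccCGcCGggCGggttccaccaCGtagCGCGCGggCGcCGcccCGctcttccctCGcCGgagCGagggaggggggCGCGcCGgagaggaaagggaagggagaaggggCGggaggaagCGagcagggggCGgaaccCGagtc

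These windows held 20 CG dinucleotides in Dnm1, 26 in Snap91, 10 in Dnm2, 7 in Dnm3 and 39 in Picalm. Over the 35 matched genes the median was 18, against a median of 6 over all genes of the table, and 32 of the 35 lay above that median. The comparison is rough, since the table was not limited to genes tested here. For all genes the first listed start was used, and for the 35 the start nearest the annotated start of the gene. The 5 neuronal isoforms had a median of 22 (range 12 to 26) and the 28 matched broad genes a median of 18 (range 2 to 39), so the ranges overlapped. The value of 2 belongs to Eps15, whose window (chr4:109342806-109343055) lies inside the annotated gene, which starts at 109280268. Windows of some other genes, such as Ap2b1 and Snx1, also lie inside the gene, so they may not be the main promoter. At least 1 CG was present in 91.7% of all promoters of the table, and the letters GGGCGG or their reverse complement CCGCCC, the GC box bound by Sp1 family factors, were present in 20 of the 35 and in 32.9% of all. DNA methylation was not analysed here.

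Per kilobase of exon, the most abundant of the 40 genes were broadly expressed ones. Averaged over the 4 groups, Bin1 had the highest level at 199 CPM per kb, followed by the clathrin heavy chain Cltc at 58 CPM per kb, Dnm2 at 53.5 CPM per kb, the scaffold Eps15 at 46.5 CPM per kb and the early endosomal GTPase Rab5c at 43.8 CPM per kb. The neuronal isoforms lay below these: Amph at 21.6, Dnm1 at 12.4 (29.9 in 6-month WT), Synj1 at 11.3, Snap91 at 3.74 and Sh3gl2 at 1.84 CPM per kb. Some broad genes were also low, such as Sh3gl1 at 11, Itsn1 at 5.6 and Ap2m1 at 5.28 CPM per kb. The lowest of the 40 was Ehd1, an ATPase of recycling endosomes, at 0.714 CPM per kb, with 13 to 33 reads in a library. Summed CPM of the 33 broad genes was 4689.9 ± 4.47 in 18-month KO, 5731 ± 63.1 in 18-month WT, 4653 ± 6.24 in 6-month KO and 3518 ± 53.8 in 6-month WT. The 5 neuronal isoforms reached 226 ± 4.38 CPM in 18-month KO, 285 ± 5 CPM in 18-month WT, 295 ± 4.88 CPM in 6-month KO and 396 ± 14.3 CPM in 6-month WT. Dnm1 set this order: the other 4 summed to 213 ± 5.41 CPM in 18-month KO, 257 ± 3.31 CPM in 18-month WT, 233 ± 0.663 CPM in 6-month KO and 239 ± 2.15 CPM in 6-month WT, highest in 18-month WT. Dnm3 and Sh3gl3 together had 439 ± 1.46 CPM in 18-month KO, 528 ± 19.7 CPM in 18-month WT, 340.3 ± 6.01 CPM in 6-month KO and 182 ± 1.01 CPM in 6-month WT.

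**Figure D1:**
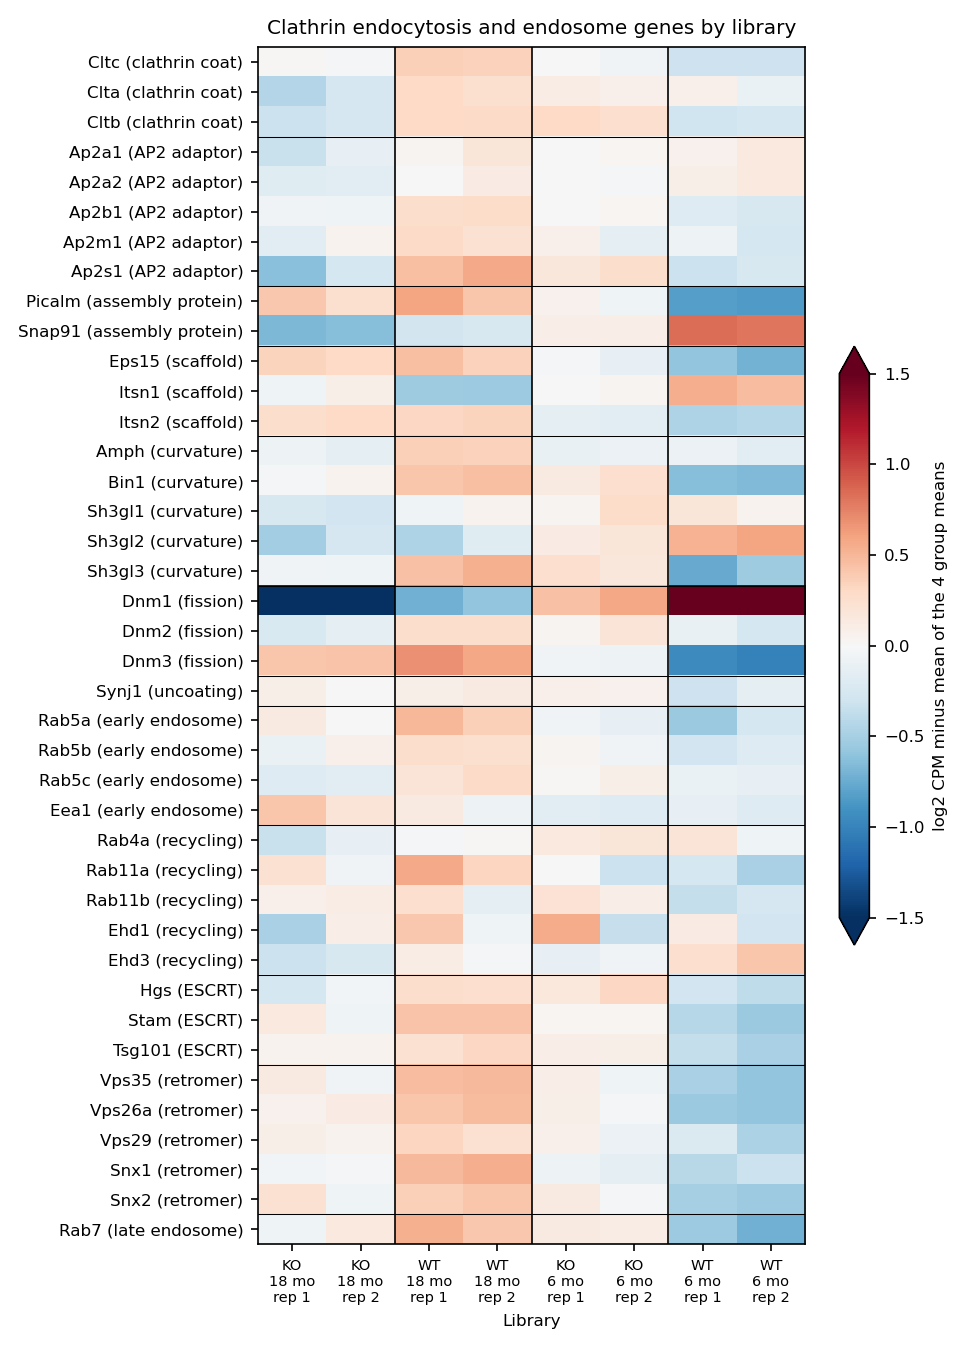
Level of each of the 40 genes (rows, with the step of the pathway) in each of the 8 libraries (columns), as log2 CPM minus the mean of the 4 group means. Colours stop at 1.5 in either direction, which Dnm1 passes. Most rows are highest in 18-month WT and lowest in 6-month WT, while Dnm1, Snap91, Sh3gl2, Itsn1, Ap2a1, Ap2a2 and Ehd3 are highest in 6-month WT.

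Group means of 23 of the 40 genes (57.5%) were highest in 18-month WT and lowest in 6-month WT, an order found in 19.4% of all tested genes. The summed oligodendrocyte markers were highest and lowest in the same groups. A different order, highest in 6-month WT and lowest in 18-month KO, was found in 6 of the 40 genes (15%), near the 14.9% of all tested genes. These were 3 of the 5 neuronal isoforms (Dnm1, Snap91 and Sh3gl2) and 3 broad genes (Ap2a1, Ap2a2 and Ehd3). The neuronal Amph and Synj1 were instead highest in 18-month WT and lowest in 6-month WT. The summed pan-neuronal markers were highest in 6-month WT and lowest in 18-month KO.

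Dynamin 1 varied more than any other of the 40 genes. Dnm1 (ENSMUSG00000026825, chr2:32308471-32353338, GRCm38), the dynamin of synaptic vesicle retrieval, had 12.5 and 14 CPM in 18-month KO, 26.3 and 28.7 CPM in 18-month WT, 58.7 and 64.7 CPM in 6-month KO, and 148 and 166 CPM in 6-month WT. No 2 groups overlapped, and both KO groups lay below the WT group of their age. Dnm2 (ENSMUSG00000033335, chr9:21424908-21507759), the dynamin used by most cells, had 241 and 256 CPM in 18-month KO, 339 and 338 CPM in 18-month WT, 290.1 and 323 CPM in 6-month KO, and 261 and 235 CPM in 6-month WT. The level of Dnm1 per kb relative to that of Dnm2 was 0.0528 and 0.0554 in 18-month KO against 0.0788 and 0.0863 in 18-month WT, and 0.206 and 0.204 in 6-month KO against 0.577 and 0.717 in 6-month WT. The third dynamin, Dnm3, followed neither: it had 383 and 386 CPM in 18-month KO, 464 and 431 CPM in 18-month WT, 277 and 272 CPM in 6-month KO, and 149 and 142 CPM in 6-month WT. Of the exon bases of Dnm2, 3.88% are shared with the neighbouring gene Tmed1, and reads there could be counted for either or neither.

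Snap91 and Picalm, the clathrin assembly proteins, were both lower in KO at 18 months and ran in opposite directions with age and between the genotypes at 6 months. Snap91 (ENSMUSG00000033419, chr9:86765923-86880654) had 19.8 and 20.4 CPM in 18-month KO, 26.1 and 26.8 CPM in 18-month WT, 33.9 and 34 CPM in 6-month KO, and 56.6 and 55.1 CPM in 6-month WT. Picalm (ENSMUSG00000039361, chr7:90130213-90213465) had 629 and 561 CPM in 18-month KO, 716 and 634 CPM in 18-month WT, 497 and 454 CPM in 6-month KO, and 267 and 262 CPM in 6-month WT. The level of Snap91 per kb relative to that of Picalm was 0.0544 and 0.0628 in 18-month KO against 0.0628 and 0.0728 in 18-month WT, and 0.118 and 0.129 in 6-month KO against 0.366 and 0.362 in 6-month WT. The KO and WT ratios thus touched at 18 months and were apart at 6 months.

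The amphiphysins, BAR domain proteins that bind dynamin and AP2, did not split in the way of the dynamins. Amph (ENSMUSG00000021314, chr13:18948205-19150921) had 92.1 and 87.4 CPM in 18-month KO, 124 and 123 CPM in 18-month WT, 89.4 and 90.9 CPM in 6-month KO, and 90.9 and 85.9 CPM in 6-month WT. It was thus high in 18-month WT and at similar levels in the other 3 groups. Bin1 (ENSMUSG00000024381), which is also abundant in mature oligodendrocytes, had 777 and 822 CPM in 18-month KO, 1051 and 1084 CPM in 18-month WT, 871 and 942 CPM in 6-month KO, and 508 and 501 CPM in 6-month WT. The level of Amph per kb relative to that of Bin1 was 0.108 and 0.0966 in 18-month KO against 0.107 and 0.103 in 18-month WT, which overlap, and 0.0934 and 0.0877 in 6-month KO against 0.163 and 0.156 in 6-month WT.

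The endophilins, BAR proteins that recruit synaptojanin, again differed by isoform. Sh3gl2 (ENSMUSG00000028488, chr4:85205126-85639195) had 8.09 and 9.75 CPM in 18-month KO, 8.4 and 10.2 CPM in 18-month WT, 12.6 and 13.1 CPM in 6-month KO, and 16.6 and 17.4 CPM in 6-month WT, from 67 to 133 reads in a library. Sh3gl1 (ENSMUSG00000003200, chr17:56016750-56036635) had 46.3 and 44.8 CPM in 18-month KO, 52 and 56.4 CPM in 18-month WT, 55.9 and 65.9 CPM in 6-month KO, and 61.9 and 56.5 CPM in 6-month WT. Sh3gl3 had 54.7 and 54.5 CPM in 18-month KO, 77.5 and 82.7 CPM in 18-month WT, 67.9 and 64.2 CPM in 6-month KO, and 33.7 and 39.5 CPM in 6-month WT. The Sh3gl3 libraries were separate between all 4 groups, whereas those of Sh3gl1 overlapped between the genotypes at 6 months.

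**Figure D2:**
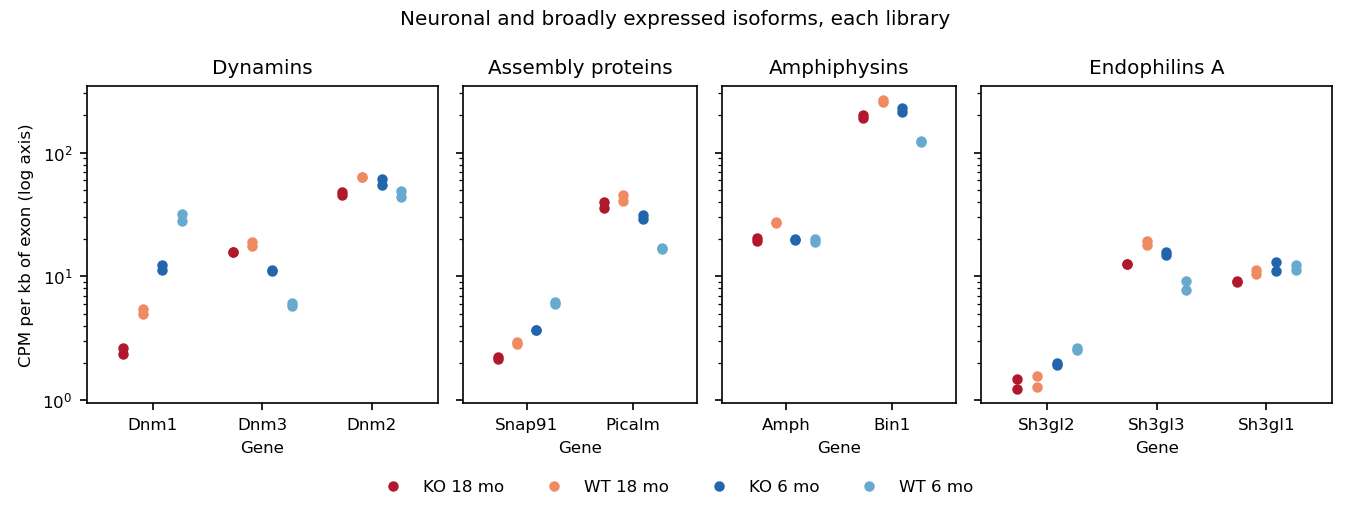
Level of neuronal, brain and testis, and broadly expressed isoforms in each library, in CPM per kb of exon on a log axis, coloured by group. Dnm1, Snap91 and Sh3gl2 step upwards to WT at 6 months, while Dnm3, Picalm and Bin1 are lowest there.

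At 18 months most of the endocytic machinery was lower in KO than in WT, from the clathrin coat to retromer. Of the 40 genes 28 fell and 2 rose (edgeR quasi-likelihood test, Benjamini-Hochberg adjusted over all 18205 tested genes, threshold 0.05), while 17.4% of all tested genes fell and 14.7% rose. The median log2 fold change was -0.33, against 0.00 over all tested genes. By role, the test called lower 3 of 3 clathrin chains, 4 of 5 AP2 subunits, both assembly proteins, 4 of 5 curvature proteins, 3 of 3 dynamins, 2 of 3 ESCRT proteins and 4 of 5 retromer genes. Among the isoform classes 3 of 5 neuronal, both brain and testis, and 23 of 33 broad genes fell. Beside this, all 14 oligodendrocyte markers fell and all 12 astrocyte markers rose, and 8 of 12 pan-neuronal and 10 of 11 microglia markers fell. With library totals as the only scaling, which moved the median of all genes by 0.14, 18 of the 40 genes fell and 2 rose, beside 10.2% and 23.4% of all tested genes.

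All 3 clathrin chains of the coat fell. Cltc, the clathrin heavy chain, had 493 and 476 CPM in KO against 622 and 616 CPM in WT, a log2 fold change of -0.35 ± 0.0517 (SE; edgeR adjusted p = 9.55e-06). The light chains Clta and Cltb, which regulate coat assembly, fell further. Clta had 42.9 and 48.9 CPM in KO against 71.7 and 68.9 CPM in WT (-0.61 ± 0.0842, adjusted p = 3.6e-06). Cltb had 69.3 and 73.1 CPM in KO against 107 and 106 CPM in WT (-0.59 ± 0.0672, adjusted p = 2.75e-07). Ap2s1, the small subunit of AP2, showed the second largest fall of the 40 genes, with 29.5 and 38 CPM in KO against 62.2 and 67.4 CPM in WT (-0.95 ± 0.1, adjusted p = 7.28e-08). KO and WT libraries did not overlap for any of these genes, but this also held for uncalled genes such as Eps15 and Synj1. Of the other AP2 subunits, Ap2a1 (-0.34), Ap2a2 (-0.23) and Ap2b1 (-0.33) fell, and the medium chain Ap2m1 stood at a log2 fold change of -0.30 (adjusted p = 0.061).

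Both isoforms of most pairs were lower in 18-month KO. Dnm1 fell the furthest of the 40 genes, by 1.07 ± 0.113 on the log2 scale (SE; adjusted p = 8.27e-08), 2.09-fold lower than in WT. Dnm2 fell by 0.45 ± 0.0633 (adjusted p = 5.88e-06) and Dnm3 by 0.22 (adjusted p = 0.00346). Amph and Bin1 fell by similar amounts, by 0.46 ± 0.065 (adjusted p = 6.17e-06) and by 0.42 ± 0.0534 (adjusted p = 1.41e-06). Snap91 fell by 0.39 ± 0.105 (adjusted p = 0.005), a call lost without WT replicate 2 at 18 months (adjusted p = 0.085). Picalm fell by 0.18 ± 0.0644 (adjusted p = 0.0344), and this call was lost without KO replicate 2 (-0.10, adjusted p = 0.329) or WT replicate 1 (-0.08, adjusted p = 0.461) at 18 months, or without KO replicate 2 at 6 months (adjusted p = 0.0528). Sh3gl1 fell by 0.26 ± 0.0897 (adjusted p = 0.0298), which was lost without either KO library (adjusted p = 0.0729 and 0.126) or WT replicate 2 (-0.17, adjusted p = 0.362) at 18 months. Sh3gl2, with overlapping groups, had a log2 fold change of -0.09 ± 0.167 (adjusted p = 0.721), and Sh3gl3 fell by 0.56 (adjusted p = 6.43e-06). With library totals as the only scaling the calls of Snap91 (adjusted p = 0.0721), Picalm (0.693) and Sh3gl1 (0.354) were lost, and DESeq2 did not call Sh3gl1 (0.0963). Upper-quartile scaling also ended the calls of Picalm (0.0774) and Sh3gl1 (0.0547), and leaving out the filter on low counts that of Sh3gl1 (0.0638).

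Most endosomal genes were lower too. Rab5a, a GTPase of early endosomes, had 65.8 and 60.1 CPM in KO against 84.5 and 77.1 CPM in WT (-0.35 ± 0.0843, adjusted p = 0.00215; 0.0574 with library totals as the only scaling), and Rab5b and Rab5c also fell (-0.26 and -0.42). Rab7, which marks late endosomes, had 71.3 and 82.8 CPM in KO against 108 and 99 CPM in WT (-0.42 ± 0.0791, adjusted p = 0.000177). Retromer returns receptors from endosomes to the Golgi and the cell surface. Its core subunit Vps35 had 148 and 130.1 CPM in KO against 186 and 189 CPM in WT (-0.43 ± 0.069, adjusted p = 2.92e-05). Snx1, a sorting nexin that works with retromer, had 164 and 168 CPM in KO against 237 and 247 CPM in WT (-0.55 ± 0.0587, adjusted p = 9.12e-08), and Vps26a and Snx2 fell as well (-0.36 and -0.30). The ESCRT-0 proteins Hgs and Stam fell (-0.40 and -0.39), and of the recycling genes Rab11a (-0.34) and Ehd3 (-0.32). Of the exon bases, 16.7% of Ap2a1, 13.1% of Itsn2, 9.22% of Sh3gl3, 7.82% of Rab7 and 6.22% of Bin1 are shared with another annotated gene, against at most 5.53% in any other of the 40, and Rab5a, Rab7, Rab11b and Tsg101 have pseudogenes, so their counts are less certain.

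The 2 genes that rose in 18-month KO were Itsn1 and Eea1. Itsn1, a scaffold that links AP2 to dynamin and to actin regulators, had 121 and 135 CPM in KO against 87.9 and 87.1 CPM in WT (0.55 ± 0.0676, adjusted p = 7.91e-07). Eea1, which binds Rab5 and tethers early endosomes before fusion, had 132 and 113 CPM in KO against 109 and 93.5 CPM in WT (0.29 ± 0.0784, adjusted p = 0.00668). The Eea1 call was lost without KO replicate 1 (0.17, adjusted p = 0.19) or WT replicate 2 (0.19, adjusted p = 0.174). The remaining 8 genes were not called in either direction: Eps15 (-0.09), Itsn2 (-0.04), Synj1 (-0.07), Rab4a (-0.23), Rab11b (0.05), Ehd1 (-0.32), Tsg101 (-0.22) and Vps29 (-0.20), beside Ap2m1 and Sh3gl2.

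**Figure D3:**
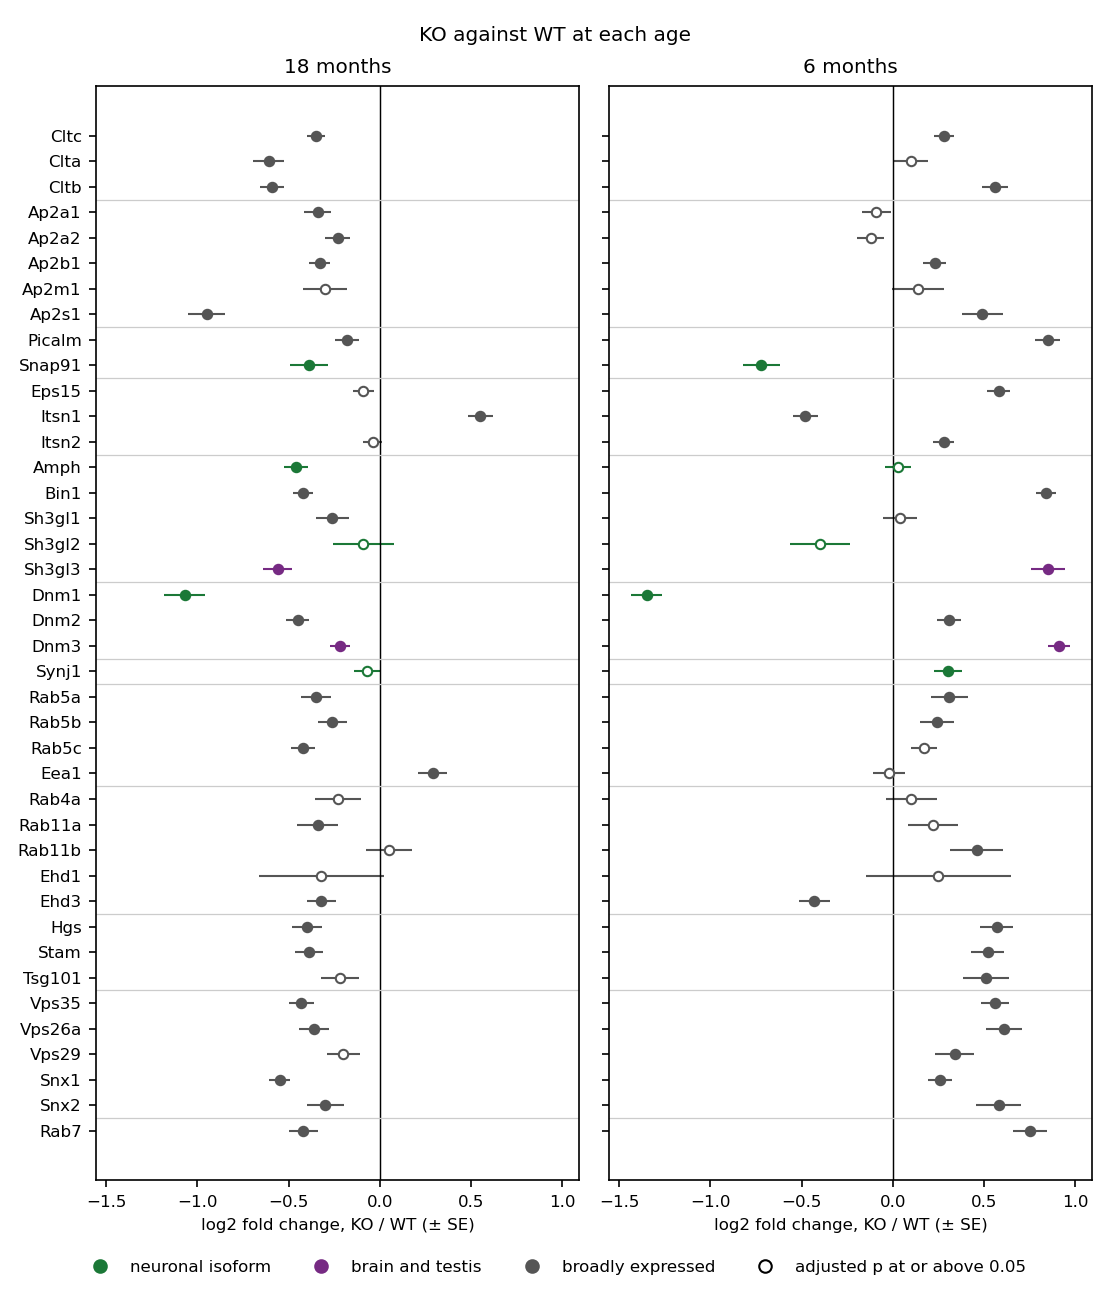
Log2 fold change of KO against WT (± SE) for each of the 40 genes at 18 months and at 6 months, coloured by isoform class; open symbols have an adjusted p at or above 0.05. Most points lie left of 0 at 18 months and right of 0 at 6 months, with Itsn1 on the opposite side from most genes at each age. Dnm1, Snap91 and the broad Ehd3 are called on the left at both ages, where Ap2a1, Ap2a2 and Sh3gl2 also lie.

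At 6 months the difference between genotypes ran the other way for most broadly expressed genes. The neuronal Dnm1 and Snap91 and the broad Ehd3 were lower in KO as at 18 months. Of the 40 genes 24 rose in KO and 4 fell, while 19.2% of all tested genes rose and 19.6% fell. The median log2 fold change was 0.28 over the 40 genes and 0.00 over all tested genes. All 5 retromer genes, all 3 ESCRT proteins, 2 of 3 clathrin chains and 2 of 5 AP2 subunits rose. Among the broad genes 21 of 33 rose and 2 fell. The neuronal isoforms split, with Synj1 higher (0.30, adjusted p = 0.00304), Dnm1 and Snap91 lower, and Amph and Sh3gl2 not called. In the same comparison all 14 oligodendrocyte markers rose and all 12 astrocyte markers fell, 6 of 12 pan-neuronal and 7 of 8 tested GABA neuron markers fell, and the WT libraries are those that stood apart from the rest.

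The dynamins parted by isoform at this age. Dnm1 fell by 1.35 ± 0.0838 on the log2 scale in KO (SE; adjusted p = 5.09e-12), 2.54-fold lower than in WT. Dnm2 rose by 0.31 ± 0.0658 (adjusted p = 0.000597) and Dnm3 by 0.91 ± 0.0616 (adjusted p = 1.99e-11). The assembly proteins parted in the same way, with Snap91 at -0.72 ± 0.0995 (adjusted p = 2.63e-06) and Picalm at 0.85 ± 0.0684 (adjusted p = 4.22e-10). Bin1 rose by 0.84 ± 0.055 (adjusted p = 1.08e-11) and Sh3gl3 by 0.85 ± 0.0951 (adjusted p = 9.71e-08). Amph had a log2 fold change of 0.03 ± 0.0724 (adjusted p = 0.796) and Sh3gl1 one of 0.04 ± 0.0953 (adjusted p = 0.782), both with overlapping groups. Sh3gl2 stood at -0.40 ± 0.165 (adjusted p = 0.0571), with KO below WT in all libraries, and with library totals as the only scaling it passed the test (-0.45, adjusted p = 0.0331).

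All 3 scaffold genes were called at 6 months, 2 higher and 1 lower in KO. Of 5 recycling genes 1 was called higher and 1 lower (20% each), near the 19.2% and 19.6% of all tested genes. Eps15, which binds AP2 at the rim of the coat, had 307 and 285 CPM in KO against 206 and 189.6 CPM in WT (0.58 ± 0.0635, adjusted p = 6.76e-08). Itsn1 had 127 and 131 CPM in KO against 185 and 175 CPM in WT and fell (-0.48 ± 0.0679, adjusted p = 3.63e-06), the reverse of its direction at 18 months. Ehd3, an EHD protein of the recycling endosome, had 62 and 65.1 CPM in KO against 80.5 and 90.3 CPM in WT (-0.43 ± 0.0856, adjusted p = 0.000285), so that it fell at both ages. Itsn2 (0.28, adjusted p = 0.000309) and the recycling GTPase Rab11b (0.46, adjusted p = 0.0134) rose. Dnm1, Snap91, Itsn1 and Ehd3 were the 4 genes that fell.

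The heavy chain Cltc had 485 and 468 CPM in KO against 392 and 391 CPM in WT (0.28 ± 0.0534, adjusted p = 0.000146). Rab5a had 57.6 and 55.2 CPM in KO against 40.8 and 49.9 CPM in WT (0.31 ± 0.101, adjusted p = 0.0157), a call lost without KO replicate 1 (adjusted p = 0.0958) or WT replicate 1 (0.19, adjusted p = 0.212). Rab7 and Vps35, at later steps of the route, showed larger differences. Rab7 had 82.1 and 80.8 CPM in KO against 51.4 and 45.3 CPM in WT (0.75 ± 0.0939, adjusted p = 5.43e-07). Vps35 had 145 and 129 CPM in KO against 96 and 89.7 CPM in WT (0.56 ± 0.0784, adjusted p = 2.67e-06). The other called genes rose by 0.23 (Ap2b1) to 0.61 (Vps26a), Rab5b among them (0.24, adjusted p = 0.0459). Besides Amph, Sh3gl1 and Sh3gl2, the genes not called were Clta (0.10), Ap2a1 (-0.09), Ap2a2 (-0.12), Ap2m1 (0.14), Rab5c (0.17), Eea1 (-0.02), Rab4a (0.10), Rab11a (0.22) and Ehd1 (0.25).

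The change of the genotype difference with age was tested directly as an interaction, the KO against WT log2 fold change at 18 months minus that at 6 months. The test called 27 of the 40 genes below 0 and 2 above 0, while 20.7% of all tested genes were called below and 18.4% above; the median was -0.58. With library totals as the only scaling the split was 23 below and 5 above, beside 14.6% and 26.2% of all tested genes. The largest called values were in broad genes and in Dnm3 and Sh3gl3. By p-value the first were Bin1 (-1.26 ± 0.0766, adjusted p = 2.13e-12), Dnm3 (-1.13 ± 0.0829, adjusted p = 5.82e-11), Cltb (-1.14 ± 0.0997, adjusted p = 1.28e-09), Sh3gl3 (-1.41 ± 0.124, adjusted p = 1.52e-09) and Picalm (-1.03 ± 0.0939, adjusted p = 2.99e-09). Ap2s1 had the value furthest below 0, at -1.44 (adjusted p = 2.78e-08). The clathrin chains, ESCRT proteins and retromer genes were called below 0 in 3 of 3, 3 of 3 and 5 of 5 cases. The 14 oligodendrocyte markers were all called below 0 as well, with a median of -1.83, and the 12 astrocyte markers all above 0, with a median of 1.98.

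Itsn1 was called above 0 in the interaction (1.03 ± 0.0958, adjusted p = 4.05e-09), and so was Eea1 (0.30 ± 0.118, adjusted p = 0.0447). The Eea1 call was lost without KO replicate 1 (adjusted p = 0.264) or WT replicate 2 (adjusted p = 0.283) at 18 months, or without any 1 library at 6 months (adjusted p = 0.0669 to 0.153), and with DESeq2 (adjusted p = 0.183), RLE (0.0567) or upper-quartile scaling (0.0545). For the neuronal isoforms that fell at both ages the interaction was not called: it was 0.28 for Dnm1 (adjusted p = 0.127) and 0.32 for Snap91 (adjusted p = 0.0817). Sh3gl2 stood at 0.31 (adjusted p = 0.316) and Ehd3 at 0.11 (adjusted p = 0.498). Amph and Synj1, the remaining neuronal isoforms, were called below 0 (-0.48 and -0.37).

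In KO, genes of the route were called lower with age more often than higher. Of the 40 genes 14 fell (35%) and 5 rose (12.5%), beside 17.9% and 13.8% of all tested genes. The share that rose thus lay near that of all tested genes, and the median log2 fold change was -0.05. The count that fell was 8 without KO replicate 1 at 18 months and 7 without KO replicate 2 at 6 months, and with library totals as the only scaling 9 fell and 8 rose and the median was 0.04. Dnm1 had the largest change, at -2.22 ± 0.104 on the log2 scale (adjusted p = 9.17e-14), 4.67-fold lower at 18 months than at 6 months. Snap91 (-0.75 ± 0.104, adjusted p = 4.96e-06), Cltb (-0.57 ± 0.0682, adjusted p = 7.67e-07), Ap2s1 (-0.65 ± 0.104, adjusted p = 3.35e-05) and Clta (-0.44 ± 0.0867, adjusted p = 0.00037) fell as well. Dnm2 fell by 0.30 ± 0.0638 (adjusted p = 0.00077), a call lost without KO replicate 2 at 6 months (-0.22, adjusted p = 0.0557). The other called genes that fell were Sh3gl2 (-0.53), Sh3gl1 (-0.42), Rab4a (-0.40), Hgs (-0.38), Sh3gl3 (-0.28), Ap2a1 (-0.24), Rab5c (-0.23) and Bin1 (-0.18). Log2 fold changes of the 5 retromer genes, which were not called, ran between 0.02 (Vps35) and 0.08 (Snx1 and Vps29), and the 21 uncalled genes as a whole lay between -0.36 (Ehd1) and 0.25 (Rab11a). In this comparison 11 of 12 pan-neuronal markers fell, 7 of 14 oligodendrocyte markers fell and 2 rose, and 9 of 12 astrocyte markers rose. Also lower were 10 of 11 microglia markers (median log2 fold change -1.39), 8 of 9 excitatory neuron markers (-2.69), 6 of 8 tested GABA neuron markers (-2.38) and 5 of 9 pericyte and smooth muscle markers (-0.42).

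The 5 genes that rose in KO with age were Dnm3, Eea1, Eps15, Itsn2 and Picalm. Dnm3 rose by 0.49 ± 0.0567 (adjusted p = 4.85e-07) and Picalm by 0.32 ± 0.0651 (adjusted p = 0.000466). Eps15 had 391 and 381 CPM at 18 months against 307 and 285 CPM at 6 months (0.38 ± 0.0599, adjusted p = 2.83e-05). Itsn2, a scaffold related to Itsn1, had 355 and 362 CPM at 18 months against 267 and 263 CPM at 6 months (0.44 ± 0.0544, adjusted p = 1.32e-06). Eea1 had 132 and 113 CPM at 18 months against 88.4 and 86.8 CPM at 6 months (0.48 ± 0.0805, adjusted p = 5.69e-05). The libraries of the 2 ages did not overlap for these 5 genes, but this also held for uncalled genes such as Tsg101 and Snx1.

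**Figure D4:**
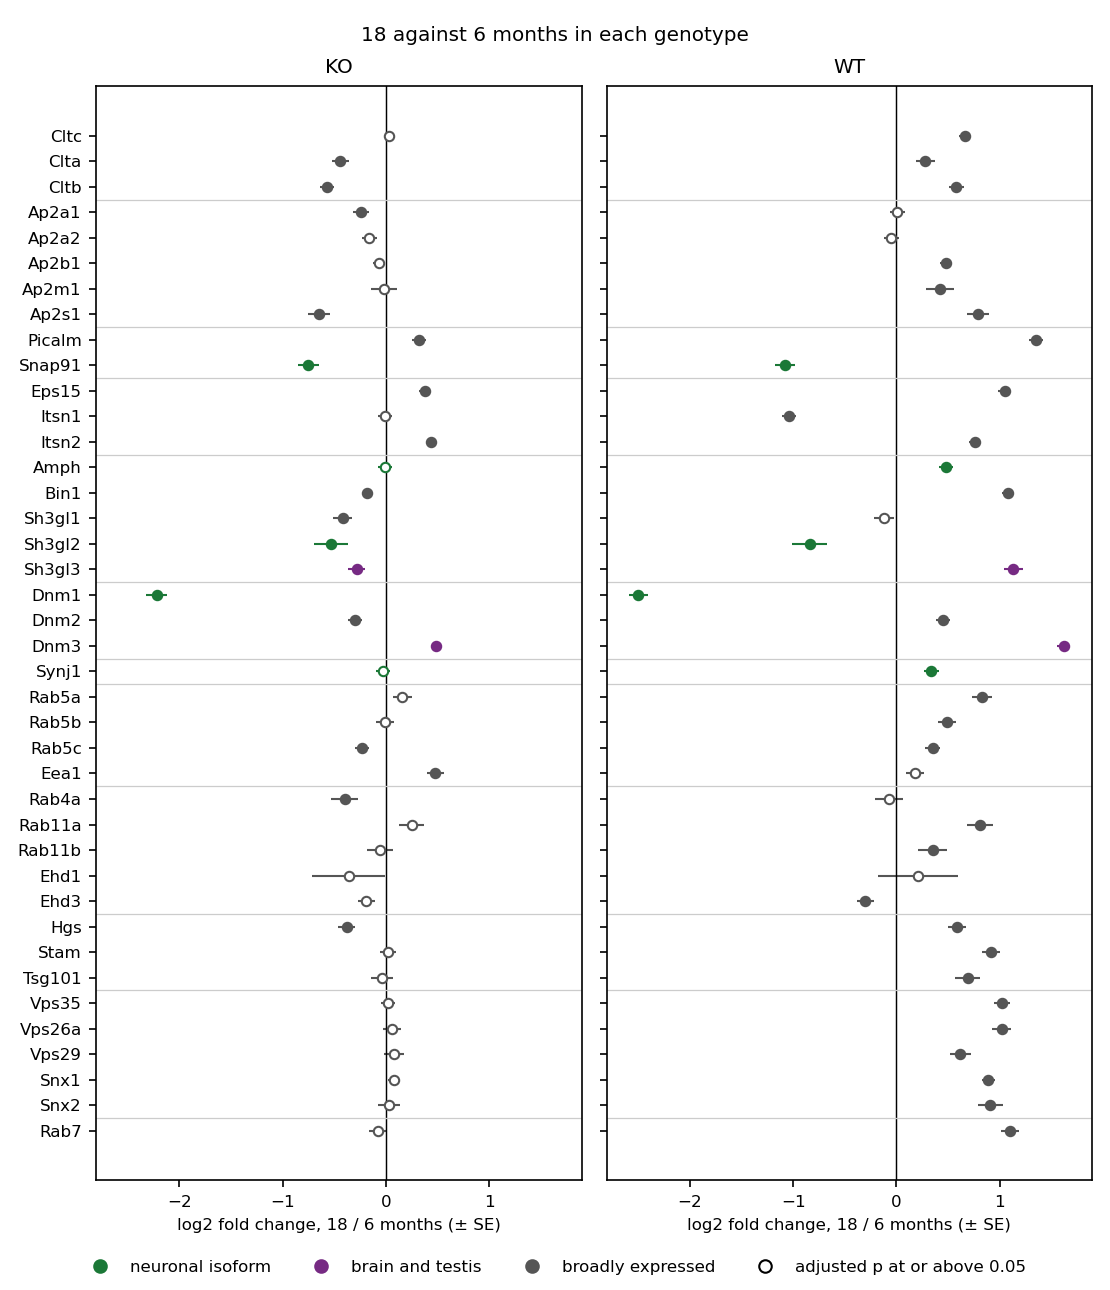
Log2 fold change of 18 against 6 months (± SE) for each of the 40 genes in KO and in WT, coloured by isoform class; open symbols have an adjusted p at or above 0.05. In KO the points lie around 0 with Dnm1 at -2.22; in WT most lie right of 0, with Dnm1, Snap91, Itsn1, Sh3gl2 and Ehd3 called on the left.

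In WT, age went with higher levels of most of the machinery, while the neuronal isoforms split, with 3 lower and 2 higher. Of the 40 genes 29 rose and 5 fell, beside 28.2% and 30.8% of all tested genes, and the median log2 fold change was 0.53, against -0.04 over all tested genes. The WT libraries at 6 months, which stood apart, are the baseline here and in the genotype comparison at that age. Dnm1 fell by 2.50 ± 0.0906 (adjusted p = 6.07e-17), 5.66-fold lower at 18 months. Snap91 fell by 1.08 ± 0.1 (adjusted p = 1.82e-09) and Sh3gl2 by 0.84 ± 0.168 (adjusted p = 0.000142). Amph (0.48, adjusted p = 2.47e-06) and Synj1 (0.34, adjusted p = 0.000496) rose. Itsn1 had 87.9 and 87.1 CPM at 18 months against 185 and 175 CPM at 6 months (-1.04 ± 0.0693, adjusted p = 3.82e-12). Ehd3 had 73.1 and 66 CPM at 18 months against 80.5 and 90.3 CPM at 6 months (-0.30 ± 0.0835, adjusted p = 0.00325), a call lost without WT replicate 2 at either age (adjusted p = 0.0863 and 0.0839) and with DESeq2 (0.0568).

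The genes that rose in WT with the smallest p-values were again broad genes and Dnm3. Dnm3 rose by 1.62 ± 0.0609 (adjusted p = 1.06e-16), 3.07-fold higher at 18 months. Picalm rose by 1.35 ± 0.0682 (adjusted p = 2.09e-14), Bin1 by 1.08 ± 0.055 (adjusted p = 2.38e-14) and Eps15 by 1.05 ± 0.0628 (adjusted p = 5.15e-13). Snx1 had 237 and 247 CPM at 18 months against 127 and 135 CPM at 6 months (0.89 ± 0.0628, adjusted p = 1.18e-11). Itsn2 had 365 and 372 CPM at 18 months against 215 and 220.3 CPM at 6 months (0.76 ± 0.0563, adjusted p = 2.66e-11). All 5 retromer genes, all 3 ESCRT proteins and all 3 clathrin chains rose, with Clta at the lowest value of the called genes (0.28, adjusted p = 0.0107). In the same comparison all 14 oligodendrocyte markers rose, with a median log2 fold change of 1.59, while all 12 astrocyte markers and 9 of 12 pan-neuronal markers fell. The 6 genes not called were Ap2a1 (0.01), Ap2a2 (-0.05), Sh3gl1 (-0.12), Eea1 (0.18), Rab4a (-0.07) and Ehd1 (0.21). The 4 pairwise comparisons share libraries with each other, so they are not independent.

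**Figure D5:**
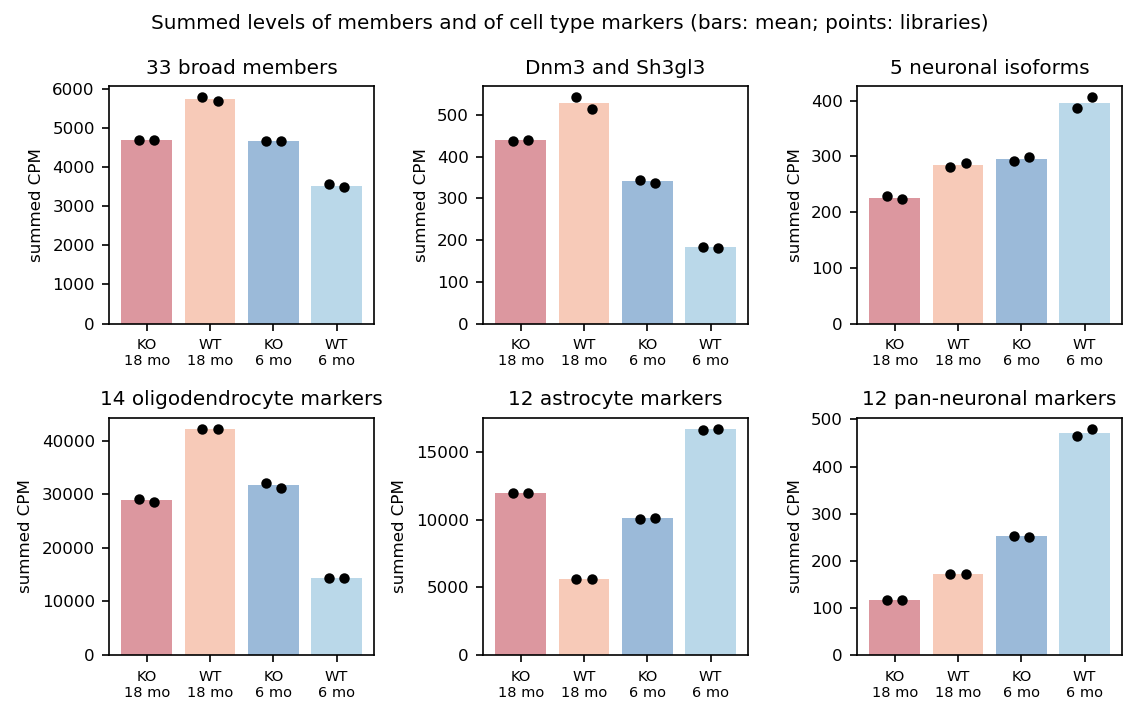
Summed CPM of the gene classes (top row) and of cell type markers (bottom row) in each group; bars are means, points the 2 libraries. The 33 broad genes and the 14 oligodendrocyte markers are both highest in 18-month WT and lowest in 6-month WT, and the 5 neuronal isoforms and the 12 pan-neuronal markers are lowest in 18-month KO and highest in 6-month WT. Without Dnm1 the neuronal isoforms are highest in 18-month WT (257 CPM).

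The surrounding pathway was read from 143 further endocytosis and endosome genes in 10 lists, all of which were tested. In KO at 18 months 47 fell and 13 rose, with a median log2 fold change of -0.14. In KO at 6 months 46 rose and 34 fell, with a median of 0.07. With age 31 rose and 30 fell in KO (21.7% and 21%, against 13.8% and 17.9% of all tested genes), and 73 rose and 39 fell in WT (51% and 27.3%, against 28.2% and 30.8%). In the interaction 63 were called below 0 and 26 above (44.1% and 18.2%, against 20.7% and 18.4%). The shares that fell at 18 months and rose at 6 months, 32.9% and 32.2%, compare with 17.4% and 19.2% of all tested genes, and the 23.8% that fell at 6 months with 19.6%. The 9.09% that rose at 18 months lay below the 14.7% of all tested genes.

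At 18 months the further ESCRT genes fell in 13 of 24 cases and rose in 1. Chmp2a and Chmp5, subunits of the ESCRT-III filament, had log2 fold changes of -0.73 and -0.66, and the ESCRT-I subunit Vps37a one of 0.27. Of 13 other retromer, WASH and sorting nexin genes 7 fell, led by Snx3 (-0.56) and Snx6 (-0.54). Of 12 genes for uncoating, kinases and actin 6 fell and 2 rose. Dnajc6, the neuronal clathrin uncoating factor auxilin, had 147 ± 2.1 CPM in KO against 219.8 ± 0.705 CPM in WT (-0.58 ± 0.0575, adjusted p = 2.82e-08), and the uncoating ATPase Hspa8 fell by 0.54. The inositol phosphatase Ocrl (0.80) and the AP2 kinase Aak1 (0.30) rose. Among 19 early coat and adaptor genes 4 fell, Epn2 (-0.39) and Tnk2 (-0.41) first, and 2 rose, Sgip1 (0.75) and Eps15l1 (0.25). Cargo receptors were divided, with 3 of 10 lower, among them Vldlr (-0.43) and Sorcs1 (-0.45), and 4 higher. Of these Lrp8, a reelin receptor, had 79.8 ± 4.25 CPM in KO against 40.7 ± 3.35 CPM in WT (0.96 ± 0.0776, adjusted p = 1.15e-09), and the sorting receptor Sorl1 rose by 0.74.

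The other lists together held calls in both directions at 18 months. Of 12 further BAR domain genes 4 fell, including Sh3glb1 (-0.37) and Fnbp1 (-0.24), and Trip10 rose (0.92). Recycling genes fell in 3 of 14 cases, including the Rab-effector Micall1 (-0.69) and Vps50 (-0.30), and Vps54 rose (0.38). Appl2 (0.49) and Rin2 (0.21) rose and Rab31 (-0.34) fell among 15 early endosome tethers and effectors. Phosphoinositide enzymes fell in 3 of 11 cases, including Mtmr2 (-0.36) and Pik3c3 (-0.26), and late endosome tethers in 3 of 13, including Vps41 (-0.27) and Vps8 (-0.23). The shares that fell among the early coat and adaptor (21.1%), recycling (21.4%) and late endosome (23.1%) genes lay near the 17.4% of all tested genes. The share of early endosome genes that fell (6.67%) lay below it. Rises were near or below the 14.7% of all tested genes in several lists. These were uncoating, kinase and actin (16.7%), early endosome (13.3%), early coat and adaptor (10.5%), BAR domain (8.33%) and recycling genes (7.14%). Of the further genes named at 18 months, Eps15l1, Rin2, Pik3c3, Vps50, Vps37a and Vps8 lost the call without 1 or more of the libraries of that age (adjusted p = 0.0582 to 0.167), and Fnbp1 (0.194) and Vps41 (0.14) with library totals as the only scaling.

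At 6 months several of these genes had the opposite sign. Dnajc6 had 158 ± 4.76 CPM in KO against 82.3 ± 0.963 CPM in WT (0.94 ± 0.0662, adjusted p = 3.71e-11), and Synj2, a relative of synaptojanin 1, rose by 0.89. Micall1 (1.03), Ehd4 (0.84), Fnbp1 (0.98), Sh3glb1 (0.63), Mtmr2 (0.83), Pik3c2a (0.26), Vldlr (0.74), Sort1 (0.55) and Vps8 (0.47) rose. Fcho2 (0.92), Appl1 (0.71), Rab21 (0.52), Tbc1d5 (0.72), Snx27 (0.46), Pdcd6ip (0.74), Stam2 (0.71) and Tgfbrap1 (0.19) also rose. ESCRT genes rose in 9 of 24 cases and fell in 1, Vps37b (-0.72). Among early coat and adaptor genes 4 of 19 rose and 9 fell, Hip1r (-0.47) and Sgip1 (-0.45) first. Retromer, WASH and sorting nexin genes rose in 5 of 13 cases and fell in 2, early endosome tethers and effectors rose in 7 of 15 and fell in 6, and recycling genes rose in 4 of 14 and fell in 2. Of phosphoinositide enzymes 4 of 11 rose and 2 fell, of BAR domain genes 4 of 12 rose and 5 fell, and of uncoating, kinase and actin genes 3 of 12 rose and 3 fell. Late endosome tethers rose in 2 of 13 cases and fell in 1, and cargo receptors rose in 4 of 10 and fell in 3. Over all tested genes 19.2% rose and 19.6% fell. Several of these shares lay near that background. Among the rises these were early coat and adaptor (21.1%), uncoating, kinase and actin (25%) and late endosome genes (15.4%). Among the falls they were uncoating, kinase and actin (25%), phosphoinositide (18.2%), retromer, WASH and sorting nexin (15.4%) and recycling genes (14.3%).

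Lower in 6-month KO were also the endocytic receptors Lrp1 and Lrp8. Lrp1 had 1184 ± 44.9 CPM in KO against 2224 ± 5.3 CPM in WT (-0.91 ± 0.0504, adjusted p = 7.71e-13), and Lrp8 had 78 ± 0.313 CPM in KO against 170.5 ± 2.64 CPM in WT (-1.13 ± 0.0731, adjusted p = 1e-11). Pacsin2 (-0.99), Sh3glb2 (-0.55), Appl2 (-0.43), Pip5k1c (-0.67), Pip5k1a (-0.38), Rab11fip5 (-0.64), Rab11fip3 (-0.27), Ocrl (-0.40), Aak1 (-0.20), Washc2 (-0.20) and Washc3 (-0.52) fell. Rin1, a guanine nucleotide exchange factor for Rab5, had 7.85 ± 0.892 CPM in KO against 19.7 ± 0.3 CPM in WT (-1.33 ± 0.186, adjusted p = 3.04e-06). Rilp, a Rab7 effector, had 0.871 ± 0.388 CPM in KO against 2.94 ± 1.59 CPM in WT (-1.73 ± 0.5, adjusted p = 0.00772), and its call was lost without replicate 2 of KO (adjusted p = 0.106) or of WT (adjusted p = 0.219). The calls of Aak1, Pik3c2a, Pip5k1a, Rab11fip3, Washc2, Washc3 and Tgfbrap1 were likewise lost without 1 or more of the libraries (adjusted p = 0.052 to 0.514).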

How the data were processed

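RNA from sorted tdTomato-labelled cortical cells was sequenced in 8 libraries, 2 in each of 4 groups. The deposited values are whole-number counts of reads per gene, made by the authors with featureCounts 1.5.0-p1, STAR 2.5.2a and CASAVA 1.8.2 on mm10, per the submitters' processing notes. Which annotation they counted on, and how strand and multiply matching reads were treated, is not stated in the labels used, so reads of overlapping genes and pseudogenes can be misassigned. Gene names, exon lengths and coordinates come from GENCODE M21 (GRCm38), which named 99.8% of the 55573 IDs, and promoters from RefSeq (GRCm38.p6).

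The counts entered edgeR 4.0.16 (R 4.3.3) and its quasi-likelihood test, as 1 model of the 4 groups with TMM scaling and filterByExpr with a minimum count of 10, which kept 18205 genes. Benjamini-Hochberg adjustment ran over all of them, with a threshold of 0.05. CPM are counts over TMM-scaled totals. Single genes were compared with each other per kb of exon, and sums of CPM only between groups. The model was tested on simulated data. Alternatives were RLE, upper-quartile and no scaling factors, no filter, DESeq2 1.42.0, the replicate number as a block, the groups of a comparison alone, and leaving out each library. A fit without WT at 6 months and the alternatives for the further pathway genes were added after seeing the data.

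Members, lists and tests were chosen with earlier results of these data known. Statistics are given for the 8 genes of the isoform pairs and Cltc, Rab5a, Rab7 and Vps35 in each genotype comparison, for up to 6 called members a direction with the smallest p in each pairwise comparison and up to 5 in the interaction, and of further pathway genes for up to 2 called per list and direction. The result of 1 further pathway gene is not reported here.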

Additional observations from a re-analysis of the deposited data

Results flagged for a closer look

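For 29 of the 40 genes the interaction term of the edgeR fit called a change of the KO against WT difference with age. The calls were 27 below 0 (67.5%) and 2 above (5%), beside 20.7% and 18.4% of all tested genes. All of them draw on the 6-month WT libraries, which stood apart from the rest. Each value is the log2 fold change at 18 months minus that at 6 months. In the clathrin coat it was -0.64 for Cltc, -0.72 for Clta and -1.14 for Cltb, and among AP2 subunits -0.56 for Ap2b1 and -1.44 for Ap2s1. Picalm stood at -1.03. The scaffolds divided, with Eps15 at -0.67, Itsn2 at -0.33 and Itsn1 at 1.03. Curvature proteins gave -0.48 for Amph, -1.26 for Bin1 and -1.41 for Sh3gl3. Fission and uncoating proteins gave -0.75 for Dnm2, -1.13 for Dnm3 and -0.37 for Synj1. At the early endosome Rab5a had -0.67, Rab5b -0.50, Rab5c -0.59 and Eea1 0.30, and in recycling Rab11a had -0.56. The Eea1 call was lost in several alternatives, as given above. The ESCRT values were -0.97 for Hgs, -0.90 for Stam and -0.73 for Tsg101. Retromer genes had -1.0 (Vps35), -0.96 (Vps26a), -0.54 (Vps29), -0.81 (Snx1) and -0.88 (Snx2), and the late endosomal Rab7 had -1.18. In the same interaction the oligodendrocyte markers were called below 0 and the astrocyte markers above 0, as given above, and their part was not tested.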

How the results depend on the processing

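With library totals as the only scaling, 18 genes fell in KO at 18 months (28 with TMM), 8 rose and 9 fell with age in KO (5 and 14 with TMM), and 5 interaction values were called above 0 (2 with TMM). DESeq2 called 9 genes lower with age in KO and 1 interaction above 0, as did RLE and upper-quartile scaling (1 each). Leaving out 1 library at a time gave 1 to 2 genes higher and 22 to 29 lower in KO at 18 months, 20 to 24 higher and 4 lower in KO at 6 months, 5 to 6 higher and 7 to 14 lower with age in KO, 26 to 30 higher and 4 to 5 lower with age in WT, and interactions of 1 to 2 above and 26 to 29 below 0. Some uncalled differences changed sign. Sh3gl2 at 18 months was 0.05 with library totals, 0.04 without KO replicate 1 and 0.10 without WT replicate 2 (-0.22 to 0.10 over all libraries left out). Amph at 6 months was -0.02 with library totals and -0.01 without WT replicate 2, and Sh3gl1 at 6 months was -0.01 with library totals, -0.06 without KO replicate 2 and -0.02 without WT replicate 2 (-0.06 to 0.16 over all); the cause was not tested. Where a group kept 1 library, that library was assumed to vary like the other groups.

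Of 982 alternative values for 64 single results of the 40 genes, 940 kept their direction and side of the threshold, 32 lost the call, 2 gained it and 8 changed sign; for 68 results of further pathway genes 998 of 1050 were kept and 52 lost the call. With the replicate number as a block, 30 genes fell and 2 rose in KO at 18 months, 25 rose and 5 fell in KO at 6 months, 6 rose and 15 fell with age in KO, 30 rose and 5 fell with age in WT, and 28 interactions were below and 2 above 0. Sh3gl2 at 6 months then passed the test (-0.40, adjusted p = 0.0454). Deviations of same-numbered libraries from their group means correlated across genes at -0.00 to 0.08. These values showed no pairing by number, but with 2 libraries a group they cannot exclude it. Without the WT libraries at 6 months, 29 genes fell and 2 rose in KO at 18 months. Reads limit Ehd1 and Sh3gl2 most, with as few as 13 and 67 in a library.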
